A study of Mus musculus with 20 samples.

Results

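The genes described here are 9 named genes of the mouse liver whose array ratio, in at least 1 probe each, followed that of Ppara from mouse to mouse, namely Fut2, Stk16, Nxn, Mindy1, Zfp90, Plpp3, Jmjd8, Gata6 and Unc119b. They are read by 12 of the 23493 probes and make up 9 of the 15252 genes on the array, and they were selected on their high correlation with Ppara over the same 20 mice, so that every correlation with Ppara below is a description and carries no test. Small interfering RNA (siRNA) or Ringer's vehicle was pushed into the liver by hydrodynamic injection, a rapid large-volume injection into the tail vein, and the livers were taken 48 h later. Of 5 groups of 4 mice, replicates A to D, the first received vehicle, and the next 2 received 40 µg of PPARa siRNA or of PPARa-M siRNA, which target different stretches of the Ppara mRNA. The last 2 received 40 µg of GL3 control siRNA or of SEAP-M control siRNA, the latter named for secreted alkaline phosphatase, a reporter. The vehicle group went through the same injection without siRNA, so all 20 mice share that procedure. The sources used here give no strain, age or sex, and they do not say whether the suffix M stands for a change to the siRNA. Whole liver RNA was measured, so fewer cells of a type and less RNA per cell cannot be told apart.

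PPARα, the protein of Ppara, is a nuclear receptor that fatty acids activate. It binds DNA together with RXR at repeats of a short half-site, and in liver it is known for switching on genes of fatty acid oxidation such as Cpt1a, the enzyme that commits fatty acids to entry into mitochondria, and Acadl, an acyl-CoA dehydrogenase. The 9 genes come from other areas of cell biology. Gata6 and Zfp90 encode transcription factors, Stk16 and Nxn encode a kinase and a redox protein of signalling, Fut2, Plpp3 and Mindy1 encode enzymes that modify glycans, lipids and ubiquitin chains, and Jmjd8 and Unc119b encode a protein of the endoplasmic reticulum (as known from human cells) and a carrier of lipid-tagged proteins.

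Each value is the log10 ratio of 1 mouse to a pool of 4 vehicle mice, so 0 is the level of the pool and a negative value is a lower level. The direction, mouse over pool, is likely rather than stated: the dyes of the labels do not name the mouse channel, while in the study's design and figure legends the siRNAs lower Ppara, as they do with the ratios read this way. A turn of all signs would leave the correlations with Ppara as they are. The ratios give no level of a gene as such, so the tissue could not be checked by how strongly its marker genes were expressed, and no gene is set above another. Array medians lay between -0.0093 and 0.006, and the interquartile range of an array, the width of its middle values, ran from 0.0442 to 0.124 and was widest in PPARa-M replicate B. That width was itself related to the mean Ppara ratio, with r = -0.55 and rho = -0.5 over 20 mice. None of the member values stood at the table's limit of 2. Mindy1, Plpp3 and Gata6 have 2 probes each, annotated to different cDNA records, and probe 1 below is the one with the larger absolute correlation.

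The promoters of 4 members are shown, since PPARα acts through DNA and the members moved together: Stk16 and Plpp3, which followed Ppara, Nxn, which ran against it, and Unc119b, whose window holds the half-site. Each run holds the 250 bases before the transcription start in RefSeq on GRCm38.p6, 5′ to 3′ on the strand of the gene, with the half-site AGGTCA on either strand in capitals.
Stk16, chr1:75210579-75210828, plus strand: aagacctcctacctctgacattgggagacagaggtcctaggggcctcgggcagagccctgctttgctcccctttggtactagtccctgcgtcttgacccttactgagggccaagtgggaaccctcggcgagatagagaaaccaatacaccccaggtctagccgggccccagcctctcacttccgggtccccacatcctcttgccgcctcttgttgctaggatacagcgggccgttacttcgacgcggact
Nxn, chr11:76399142-76399391, minus strand: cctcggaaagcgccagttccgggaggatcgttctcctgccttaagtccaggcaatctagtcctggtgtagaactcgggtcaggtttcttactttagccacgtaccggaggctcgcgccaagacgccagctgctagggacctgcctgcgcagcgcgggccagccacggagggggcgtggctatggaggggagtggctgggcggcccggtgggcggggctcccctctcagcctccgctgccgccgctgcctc
Plpp3, chr4:105157097-105157346, plus strand: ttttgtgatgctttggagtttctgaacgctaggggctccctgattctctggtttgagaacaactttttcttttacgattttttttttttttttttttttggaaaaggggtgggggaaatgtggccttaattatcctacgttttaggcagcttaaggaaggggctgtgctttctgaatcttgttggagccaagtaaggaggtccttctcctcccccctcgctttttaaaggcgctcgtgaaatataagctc
Unc119b, chr5:115134976-115135225, minus strand: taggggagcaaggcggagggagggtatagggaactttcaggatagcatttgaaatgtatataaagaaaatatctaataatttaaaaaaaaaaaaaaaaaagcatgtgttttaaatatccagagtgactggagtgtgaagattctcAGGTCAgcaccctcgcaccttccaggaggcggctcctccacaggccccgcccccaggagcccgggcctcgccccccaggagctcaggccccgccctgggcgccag
RefSeq windows matched 6 of the 9 members, and each spans 300 bases, 250 before the start and 50 after it. The half-site was found in 1 of the 6 windows, that of Unc119b, where it begins 105 bases before the start, against 16.3% of all 32851 windows of that length. The direct repeat that PPARα and RXR are known to bind, a pair of half-sites in the same direction with 1 base between them, was found in 0 of the 6 windows and in 0.0396% of all windows. Guanine and cytosine made up 46% of the Plpp3 window and 69.7% of the Nxn window, the lowest and the highest of the 6, beside a median of 52.7% over all windows. A match of letters is no site of binding, and no match says only that these letters are not in this window.

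Ppara was read by 4 probes, which correlated with each other over the 20 mice (r between 0.942 and 0.992), and their mean is used throughout. The ratios of Ppara were -0.177, -0.317, -0.178 and -0.186 with PPARa-M siRNA and 0.0258, -0.126, -0.0876 and -0.106 with PPARa siRNA. They were 0.242, -0.0468, 0.0374 and -0.0204 with SEAP-M, 0.0114, 0.061, 0.00137 and 0.0447 with GL3 and 0.0653, -0.0323, -0.00885 and 0.0454 with vehicle, replicates A to D in each case. All 4 PPARa-M mice lay below every other mouse, at a mean of 61% of the pool. The PPARa mice averaged 84.4% of the pool, and PPARa replicate A alone of the 8 mice with a Ppara siRNA stood above the pool. SEAP-M replicate A, at 174% of the pool, was the highest of all 20 mice, and PPARa-M replicate B, at 48.3%, the lowest, so these mice stand at the ends of every relation below.

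**Figure D1:**
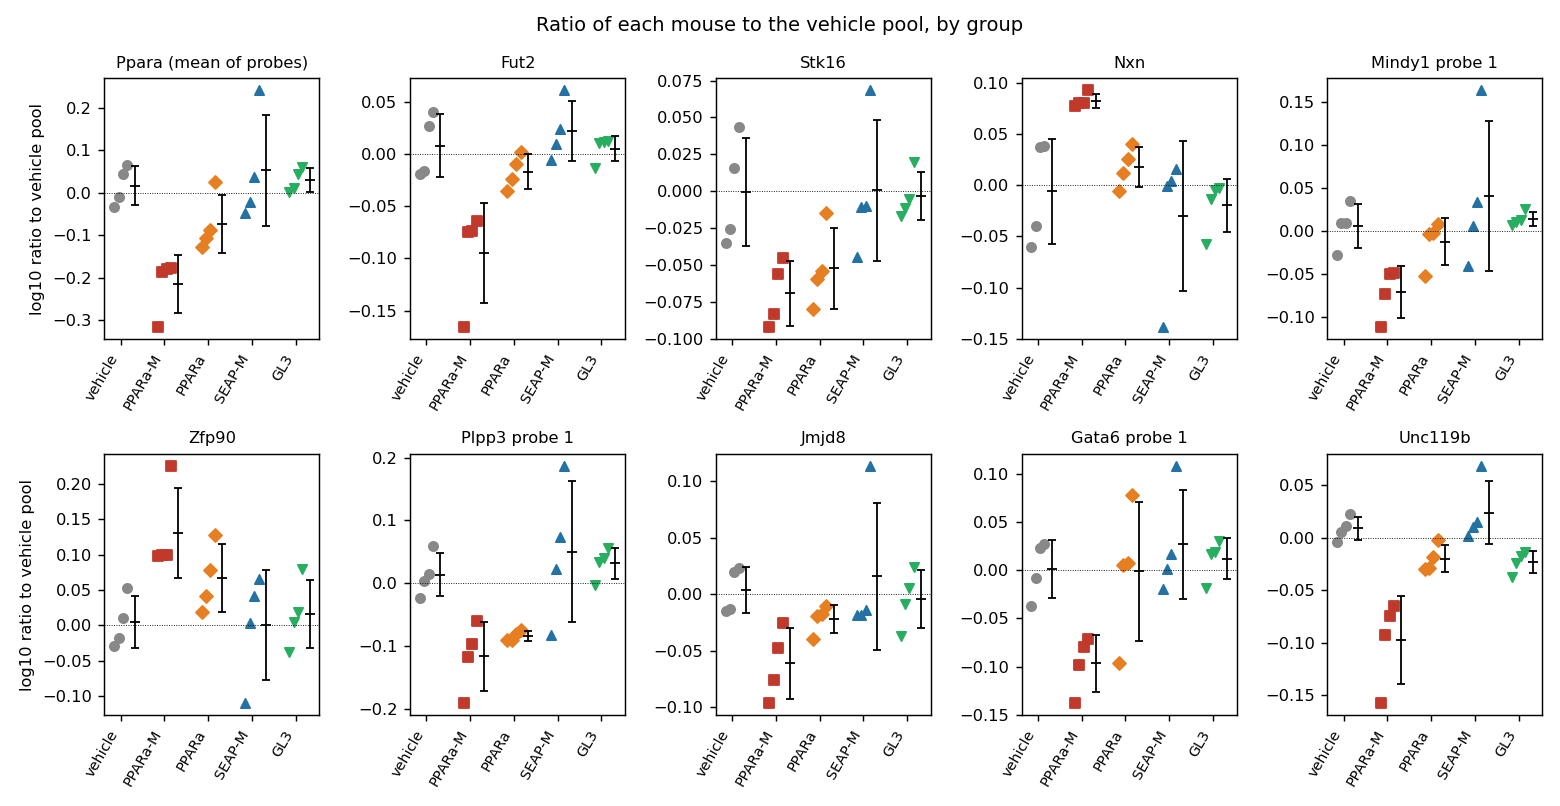
Log10 ratio to the vehicle pool (y axis) of Ppara, as the mean of 4 probes, and of probe 1 of each member in each of the 20 mice, by group (x axis), with the mean and the SD of the 4 mice to the right of the points. The 4 PPARa-M mice lie apart from the 4 vehicle mice for all 9 members, below them for 7 and above them for Nxn and Zfp90.

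In the PPARa-M mice, where Ppara was lowest, probe 1 was below the pool for 7 members and above it for Nxn and Zfp90. For Mindy1 and Gata6 this holds for probe 1 alone, which was picked for its larger correlation. The PPARa mice were less uniform, with Ppara below the pool in 3 of 4. There Stk16, Plpp3, Jmjd8 and Unc119b were below it in 4 of 4, Fut2 and Mindy1 in 3 and Gata6 in 1. Zfp90 was above it in 4 of 4 and Nxn in 3. Over the 20 mice the absolute r of probe 1 ran from 0.868 to 0.924 with a median of 0.884, and the rank correlation from 0.654 to 0.898. The middle of all probes lay at r = 0.0402, with the 95th percentile at 0.618 and the 5th at -0.572. Nxn and Zfp90 had the lowest r of all 23493 probes. The slopes were shallower than that of Ppara itself: for each unit of log10 Ppara, probe 1 moved by 0.302 (Jmjd8) to 0.623 (Plpp3) in absolute value. Probe 2 had a slope of 0.736 for Plpp3, -0.138 for Gata6 and -0.276 for Mindy1.

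Fut2, a fucosyltransferase that builds the H antigen on glycans of epithelia and secretions, had the highest r of the 9, at 0.924. Its ratios were -0.0744, -0.166, -0.0736 and -0.0642 with PPARa-M, 0.0019, -0.0358, -0.0091 and -0.0243 with PPARa and 0.061, -0.0056, 0.0235 and 0.0095 with SEAP-M. They were 0.0109, -0.0132, 0.0121 and 0.0113 with GL3 and 0.0271, -0.0187, -0.0165 and 0.0404 with vehicle. The PPARa-M mice lay below all other mice, without overlap, while the PPARa mice overlapped with the GL3 and vehicle mice. Leaving out 1 mouse at a time moved r only between 0.911 and 0.939.

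Plpp3, a phosphatase at the cell surface that removes the phosphate from lysophosphatidic acid and related lipids, covered the widest range of the 9 first probes, 0.378 on the log10 scale. Probe 1 gave -0.0604, -0.191, -0.117 and -0.0961 with PPARa-M, -0.0806, -0.0903, -0.0903 and -0.0744 with PPARa and 0.187, 0.0229, 0.074 and -0.0824 with SEAP-M. It gave -0.0024, 0.0333, 0.0557 and 0.04 with GL3 and 0.0031, -0.0234, 0.0154 and 0.059 with vehicle. All 8 mice with a Ppara siRNA were below the pool, and SEAP-M replicate D stood among them. PPARa replicate A, where Ppara was above the pool, was as low for Plpp3 as the other PPARa mice. Probe 2 of Plpp3 moved the same way as Ppara (r = 0.791, against 0.882 for probe 1), and the 2 probes correlated with each other at 0.754. Its lowest value, -0.404, was that of PPARa-M replicate B.

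Nxn encodes nucleoredoxin, a thioredoxin-family protein that binds Dishevelled and restrains Wnt signalling, and its r of -0.893 was the lowest on the array. Its ratios were 0.08, 0.0925, 0.0801 and 0.0773 with PPARa-M, -0.0057, 0.0404, 0.0251 and 0.0117 with PPARa and -0.139, 0.0044, 0.0154 and -0.0004 with SEAP-M. They were -0.0576, -0.0044, -0.0135 and -0.0027 with GL3 and -0.0398, 0.0374, 0.038 and -0.06 with vehicle. The PPARa-M mice were close to each other (SD 0.00681) and above all other mice, and SEAP-M replicate A, the mouse with the highest Ppara, was the lowest.

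Zfp90, a zinc finger protein with a KRAB domain, of a family of transcription repressors, followed with r = -0.884. Its ratios were 0.0993, 0.226, 0.099 and 0.0988 with PPARa-M, 0.0195, 0.128, 0.0412 and 0.078 with PPARa and -0.11, 0.0417, 0.0658 and 0.0038 with SEAP-M. They were 0.0189, 0.0793, 0.0047 and -0.0376 with GL3 and -0.0293, 0.0107, 0.0531 and -0.0175 with vehicle. Again PPARa-M replicate B and SEAP-M replicate A were the extremes, now with the signs turned, and all 8 mice with a Ppara siRNA were above the pool.

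Stk16, a serine/threonine kinase anchored by lipid to Golgi membranes, reached r = 0.895. Its ratios were -0.083, -0.0922, -0.0451 and -0.0563 with PPARa-M, -0.0144, -0.0799, -0.0597 and -0.0539 with PPARa and 0.0684, -0.0442, -0.0109 and -0.01 with SEAP-M. They were 0.02, -0.0116, -0.0165 and -0.0049 with GL3 and 0.0161, -0.0258, -0.0351 and 0.0434 with vehicle. Here the groups of the 2 Ppara siRNAs lay close together, with means of -0.0692 and -0.052. Both were below the pool in all of their mice.

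Unc119b, which binds proteins carrying a myristoyl group and passes them to the primary cilium, reached r = 0.868 with a rank correlation of 0.654, the lowest of the 9. Its ratios were -0.0925, -0.157, -0.065 and -0.0743 with PPARa-M, -0.0181, -0.0298, -0.0286 and -0.0025 with PPARa and 0.0684, 0.015, 0.0019 and 0.0104 with SEAP-M. They were -0.0368, -0.0168, -0.0135 and -0.0236 with GL3 and 0.0228, -0.0037, 0.0116 and 0.0059 with vehicle. The GL3 mice were all below the pool and overlapped with the PPARa mice rather than with the SEAP-M mice.

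Gata6, a transcription factor needed for the formation of endoderm and liver, had 2 probes that went apart. Probe 1 (r = 0.869) gave -0.0981, -0.138, -0.0714 and -0.0792 with PPARa-M, 0.0783, 0.0059, 0.0073 and -0.096 with PPARa and 0.108, -0.0192, 0.0168 and 0.0014 with SEAP-M. It gave 0.0169, -0.0185, 0.0304 and 0.019 with GL3 and 0.0274, -0.0085, -0.0372 and 0.023 with vehicle. The PPARa mice were spread widely, from -0.096 to 0.0783. Probe 2 had r = -0.508 over all mice, 0.0199 within groups, and -0.408 with probe 1 of the same gene, so the track of Ppara belongs to 1 of the 2 probes. Probe 2 was above the pool in 8 of 8 mice with a Ppara siRNA, and the mean of both probes had r = 0.642.

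Mindy1, a deubiquitinase that trims long ubiquitin chains from their end, showed the same split. Probe 1 (r = 0.888) gave -0.0483, -0.112, -0.0733 and -0.0497 with PPARa-M, -0.0022, 0.0085, -0.0031 and -0.0518 with PPARa and 0.164, 0.006, 0.0341 and -0.0408 with SEAP-M. It gave 0.0106, 0.0076, 0.0258 and 0.0134 with GL3 and 0.0089, -0.0277, 0.009 and 0.0346 with vehicle. Apart from the PPARa-M mice and SEAP-M replicate A, the values of probe 1 lay between -0.0518 and 0.0346. Probe 2 ran the other way, with r = -0.489 over all mice and -0.44 with probe 1, and averaged 0.134 ± 0.0994 (SD, n = 4) in the PPARa-M mice, from -0.0038 to 0.231. With both probes averaged, r was 0.233 over all mice and -0.157 in the 8 mice with a Ppara siRNA.

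Jmjd8, a protein with a JmjC domain, reached r = 0.873. Its ratios were -0.0254, -0.0964, -0.0757 and -0.0475 with PPARa-M, -0.0174, -0.0107, -0.0398 and -0.0194 with PPARa and 0.113, -0.0137, -0.0187 and -0.0184 with SEAP-M. They were -0.0372, 0.0238, 0.0056 and -0.0084 with GL3 and 0.0227, -0.0146, -0.0133 and 0.02 with vehicle. SEAP-M replicate A stood well above all others, and the remaining SEAP-M mice lay between -0.0187 and -0.0137.

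**Figure D2:**
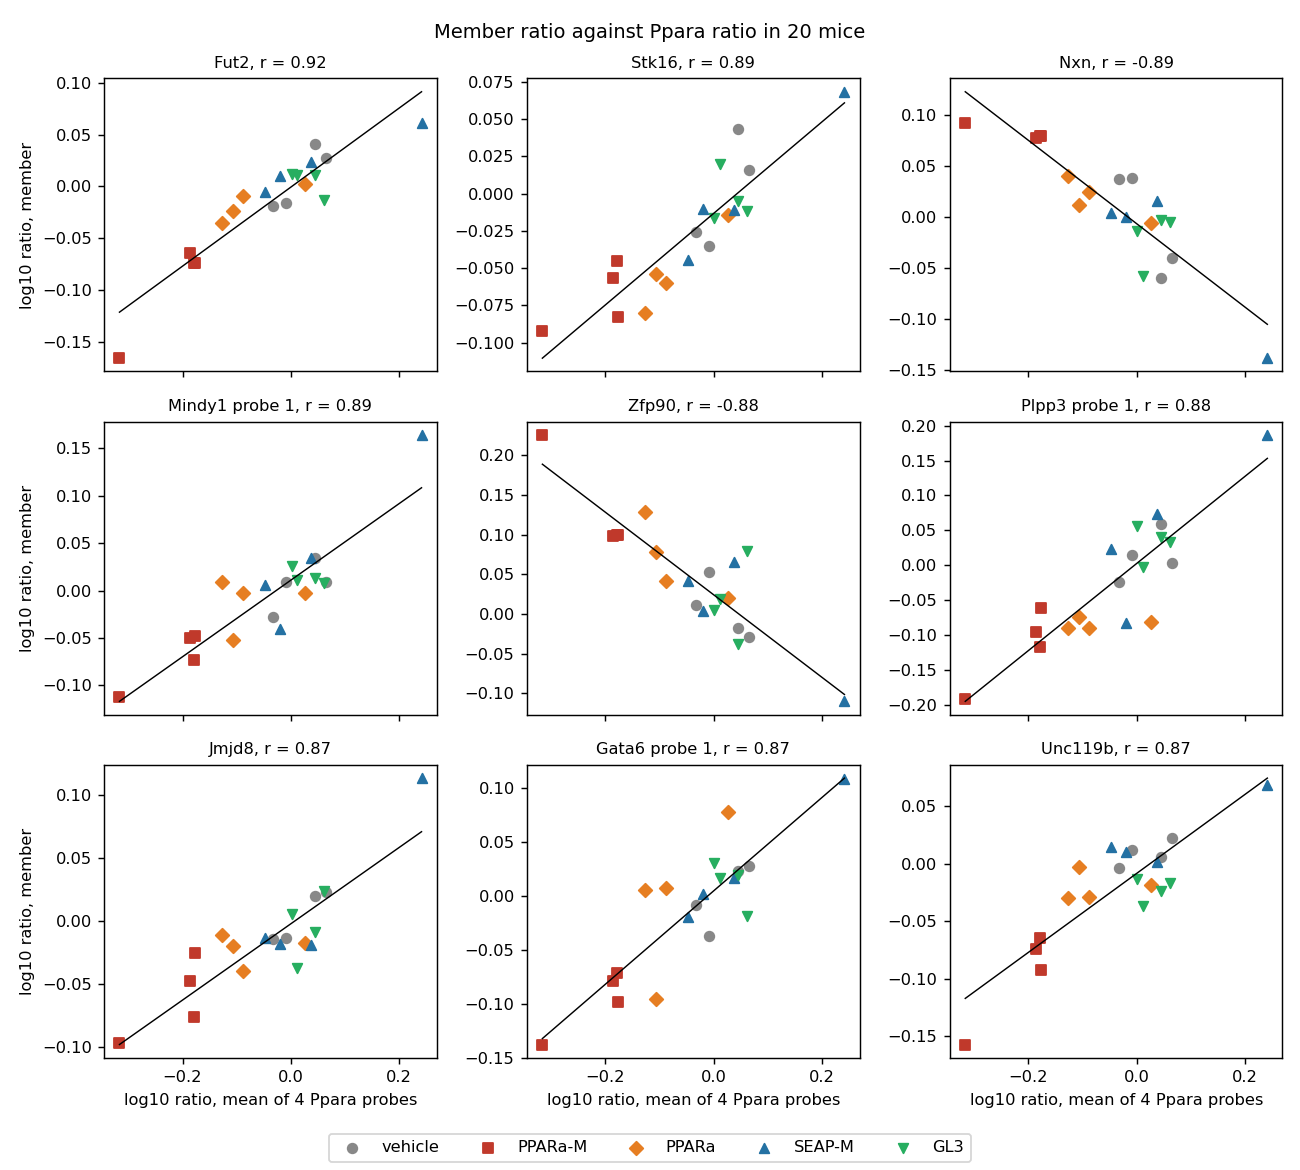
Log10 ratio of probe 1 of each member (y axis) against the mean log10 ratio of 4 Ppara probes (x axis) in 20 mice, marked by group, with the least-squares line. PPARa-M replicate B at the far left and SEAP-M replicate A at the far right carry the ends of each line, and the slopes of Nxn and Zfp90 are negative.

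Part of the relation lay between the groups and part within them. After the mean of each group had been taken from the member and from Ppara, the absolute r of probe 1 ran from 0.719 (Unc119b) to 0.831 (Stk16), with a median of 0.763 and the sign of the overall r for 9 of 9. In the 8 mice with a Ppara siRNA, which mix the PPARa and PPARa-M groups, it ran from 0.714 to 0.946. Among the 12 mice without one it ran from 0.609 to 0.906. These mice were all among those on which the members were selected.

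In the 12 mice without a Ppara siRNA the relation rested in large part on SEAP-M replicate A. Without that mouse the absolute r fell to between 0.168 and 0.655, with a median of 0.491. Fut2 went from 0.766 to 0.539 and Nxn from -0.821 to -0.491. Stk16 (0.655) and Jmjd8 (0.608) kept the largest values, whereas Zfp90 came to -0.168 and Unc119b, from 0.609, to -0.169, with the opposite sign. With SEAP-M replicates A and B left out, whose Ppara ratios were the most distant from the middle of these 12, the absolute r ran from 0.00499 to 0.629.

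Among the 8 mice with a Ppara siRNA, PPARa replicate A and PPARa-M replicate B were the farthest from the median. Without both, over 6 mice, r was 0.979 for Fut2, -0.956 for Nxn and 0.878 for Unc119b, no weaker than before. Plpp3 probe 1 dropped to 0.188 and Stk16 to -0.000897. Ppara in these 6 mice lay between -0.186 and -0.177 with PPARa-M and between -0.126 and -0.0876 with PPARa. The siRNA given and the Ppara level can therefore not be told apart in them. Over all mice, leaving out PPARa-M replicate B and SEAP-M replicate A gave an absolute r between 0.719 and 0.898, with the same sign for 9 of 9. Within groups, SEAP-M replicate A alone took Nxn from -0.755 to -0.442 and Mindy1 probe 1 from 0.808 to 0.528. Given the interquartile range of each array, the partial r of probe 1 ran from 0.804 to 0.909 in absolute value, and after scaling all arrays to 1 interquartile range r ran from 0.72 to 0.887.

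**Figure D3:**
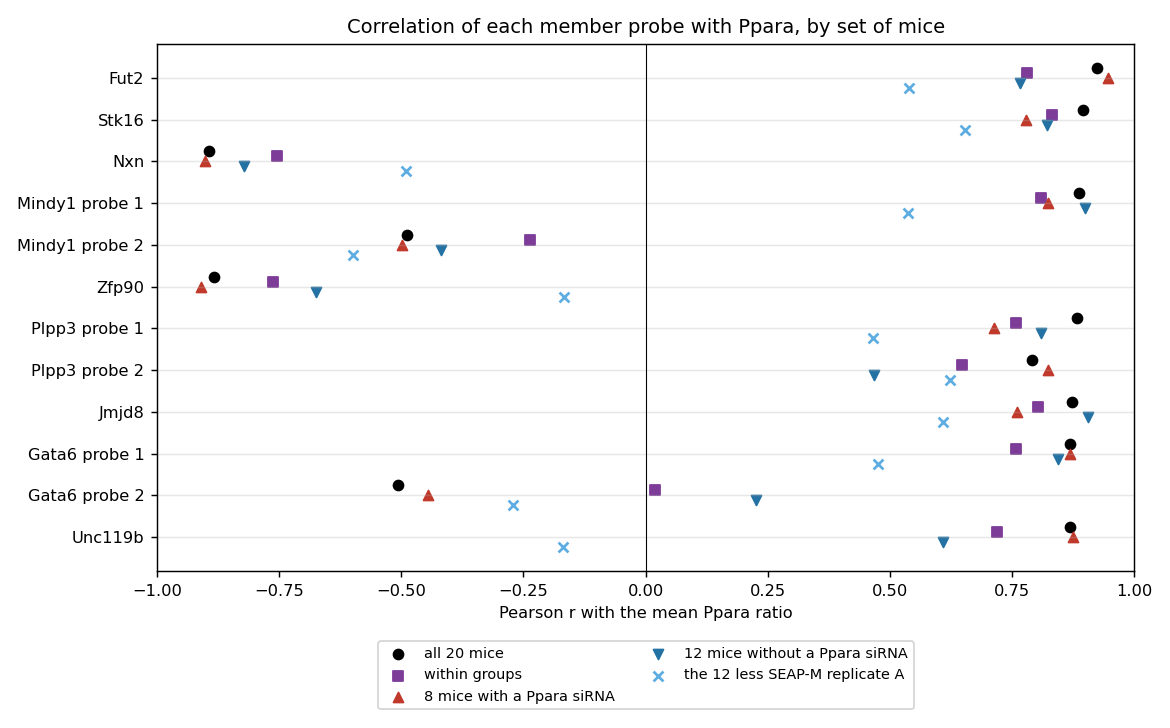
Pearson r of each of the 12 member probes (y axis) with the mean Ppara ratio (x axis), over all 20 mice, within groups, in the 8 mice with a Ppara siRNA, in the 12 without one, and in those 12 less SEAP-M replicate A. Most first probes move toward 0 in the last set, where Unc119b changes sign, and probe 2 of Mindy1 and of Gata6 lies on the other side of 0 from probe 1 over all mice.

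The differences between the groups are given for each Ppara siRNA against a control siRNA. They come from 1 limma fit over all 20 arrays, and as Ppara differs in the contrasts with a Ppara siRNA, these were part of what selected the members, so the differences have a standard error and no p. With PPARa-M siRNA against SEAP-M control siRNA, Ppara differed by -0.89 on the log2 scale, and the members by -0.55 ± 0.13 (SE) for Plpp3 probe 1, -0.41 ± 0.11 for Gata6 probe 1, -0.40 ± 0.07 for Unc119b and -0.39 ± 0.07 for Fut2. Plpp3 thus stood at 68.2% of its level in the SEAP-M mice. Zfp90 was higher by 0.43 ± 0.13 and Nxn by 0.37 ± 0.10. Mindy1 probe 1 (-0.37 ± 0.10), Jmjd8 (-0.26 ± 0.09) and Stk16 (-0.23 ± 0.08) complete the 9. The SEAP-M means include replicate A, with Ppara at 174% of the pool, which widens these differences. For Jmjd8 that mouse had a log10 ratio of 0.113, while the other SEAP-M mice lay between -0.0187 and -0.0137.

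With PPARa siRNA against GL3 control siRNA, Ppara differed by -0.34 on the log2 scale. Plpp3 probe 1 had -0.38 ± 0.13 and probe 2 -0.31 ± 0.19, Zfp90 had 0.17 ± 0.13 and Stk16 -0.16 ± 0.08. The first probes of Fut2, Mindy1, Jmjd8, Gata6 and Unc119b were within 1 standard error of 0, with Unc119b at 0.0097 ± 0.07 and Gata6 probe 1 at -0.043 ± 0.11. The median absolute difference of the 9 first probes was 0.39 for the first contrast and 0.09 for the second, beside 0.11 and 0.07 for all probes.

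Over all probes, 2.69% passed an adjusted p of 0.05 with PPARa-M against SEAP-M, 0.145% with PPARa against GL3 and 0.255% with both Ppara siRNAs against both control siRNAs. No such call is given for a member, since the members were selected on the values these contrasts compare. The signs of all 12 member differences were the same under quantile normalization and under scaling to 1 interquartile range in each of these contrasts, but the sizes were not. For PPARa-M against SEAP-M the median absolute difference of the first probes went from 0.39 to 0.29 and 0.27, in that order. The count of all probes that passed went from 632 to 14 and 27. With PPARa against GL3 the median went from 0.09 to 0.10 under both.

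Looked at mouse by mouse, the PPARa-M mice did not overlap with the SEAP-M mice for 9 of 12 member probes, beside 10.4% of all probes, and not with the vehicle mice for 11 of 12, beside 12.8% of all probes. The PPARa mice did not overlap with the GL3 mice for 2 of 12, both of them probes of Plpp3, beside 4.44% of all probes. These shares follow from the selection in the same way as the differences do.

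**Figure D4:**
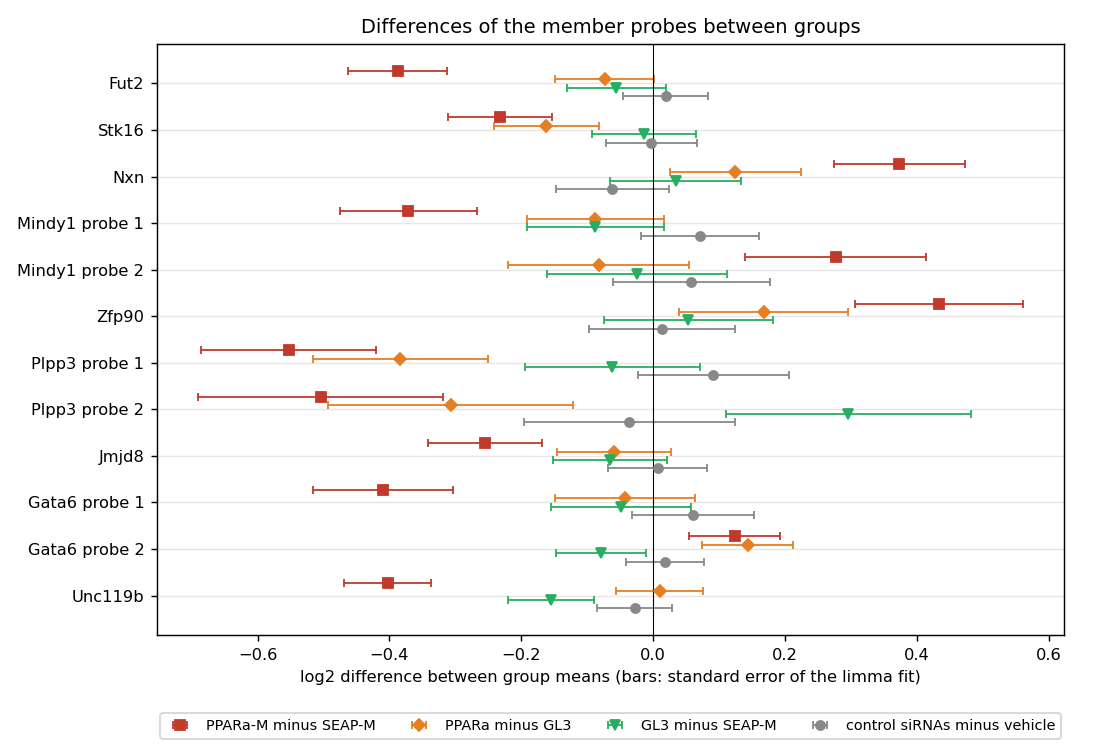
Difference between group means on the log2 scale (x axis) for the 12 member probes (y axis), with the standard error of the limma fit as bars, for PPARa-M minus SEAP-M, PPARa minus GL3, GL3 minus SEAP-M and the mean of both control siRNAs minus vehicle. For the first probes the differences of the last 2 contrasts lie between -0.15 (Unc119b) and 0.09 (Plpp3 probe 1), whereas PPARa-M minus SEAP-M reaches from -0.55 (Plpp3 probe 1) to 0.43 (Zfp90).

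The remaining comparisons are between groups with similar Ppara means. Selection for a close track of Ppara favours small differences of the members wherever Ppara hardly differs, so these fits were biased toward no call for the members and a count of 0 says little. The median absolute difference of the 9 first probes was 0.03 for control siRNAs against vehicle and 0.06 for GL3 against SEAP-M, beside 0.05 and 0.09 for all probes. Control siRNAs against vehicle asked whether siRNA as such moved a member: Ppara differed by 0.08 on the log2 scale, and 0 of 12 member probes passed in the limma fit, as did 0.00426% of all probes (1 probe). At an unadjusted p below 0.05 it was 0 of 12. The largest difference was that of Plpp3 probe 1, 0.09 ± 0.11, with an adjusted p of 1.00, and the smallest that of Stk16, -0.0029 ± 0.07.

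GL3 against SEAP-M set one control siRNA against the other, with a Ppara difference of -0.08 on the log2 scale. In the limma fit 0 of 12 member probes passed, as did 0% of all probes, while 2349 probes, 1 of them a member's, had an unadjusted p below 0.05. That member was Unc119b, with a difference of -0.15 ± 0.07 on the log2 scale (adjusted p = 0.428 in the limma fit). Its GL3 and SEAP-M mice did not overlap, which held for 1 of 12 member probes and for 8.73% of all probes. Plpp3 probe 2 had the largest difference, 0.30 ± 0.19, with an adjusted p of 0.655. With array quality weights 231 probes passed, and again 0 of 12 member probes.

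A last fit asked whether a probe differed between the groups beyond its straight line on the Ppara ratio. In the moderated F test over 4 group terms 0 of 12 member probes passed, beside 1.98% of all probes. The smallest p of a member was 0.0453, for Unc119b (adjusted p = 0.322), and it was the only one below 0.05 before adjustment. Here too selection for a high correlation leaves small residuals, so the fit was biased toward no call for the members and the 0 says little.

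The members also followed each other, which their selection for a high correlation with Ppara largely fixed in advance. Once the signs of Nxn and Zfp90 had been turned, the 36 pairs of first probes had r between 0.675 and 0.909 with a median of 0.805. With the Ppara ratio held fixed the median partial r was 0.013, and it lay above 0 in 21 of 36 pairs. In 4 pairs it was at least 0.5, again with the signs turned, for Fut2 with Unc119b (0.565), Stk16 with Nxn (0.545), Mindy1 probe 1 with Plpp3 probe 1 (0.533) and Mindy1 probe 1 with Jmjd8 (0.523). All of these points share the same 20 arrays and the same pool. What lies behind the shared movement was not tested.

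For each member the most similar other gene over the 20 mice was looked up. It is the highest r among all other probes with 1 symbol, so a high value comes in part from the search. No such search was made for other probes, and what the pairs share was not tested. Fut2 went with Asnsd1 (r = 0.951), Unc119b with Desi1 (0.919), Plpp3 probe 1 with Aifm1 (0.913) and Mindy1 probe 1 with Nmt1 (0.903). Nmt1 encodes an enzyme that attaches myristate to proteins, and Aifm1 a flavoprotein of mitochondria. Gata6 probe 1 went with Gje1 (0.948), Jmjd8 with Gnb2 (0.889), Nxn with Rhoc (0.884), Stk16 with Acsm3 (0.858) and Zfp90 with Plscr3 (0.849). Probe 2 of Plpp3, of Gata6 and of Mindy1 had other partners, Dhx40 (0.957), Plek2 (0.887) and Cyp2s1 (0.824). The partners of the first probes had an absolute r with Ppara between 0.716 (Rhoc) and 0.849 (Asnsd1).

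The border of the group is narrow. The member with the smallest absolute r, Unc119b at 0.868, stood just above Nfe2l1 (0.866), Got2 (0.865) and Ces3b (0.865), which are not members. Eci1 (0.89), Mlycd (0.885) and Vnn1 (0.877), all of them outside the 9 genes, lay among the members in value, with 1 probe that has no gene symbol (0.917). Eci1 and Mlycd encode enzymes of fatty acid oxidation and malonyl-CoA breakdown, and Vnn1 encodes a pantetheinase. Of the same order were 1700021K19Rik (0.865), Scmh1 (0.863), Slc48a1 (0.861) and Ide (0.86). On the negative side Babam2 (-0.862), Dync2li1 (-0.857), Crym (-0.843), Hbegf (-0.84) and 1700067K01Rik (-0.839) followed Nxn and Zfp90.

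Genes that PPARα is known to switch on are set beside the members, with the mean of the probes of a gene as its value. This differs from probe 1, used for the members above. With probes averaged, Mindy1 had an r of 0.233 and Gata6 of 0.642. Of 36 listed target genes 28 were on the array, and their median r with Ppara was 0.417, beside 0.0479 for all other genes. The mean ratio of these 28 had r = 0.745 over all mice and 0.295 within groups. Cpt1a reached 0.897 and Acadl 0.626, and within groups 0.757 and 0.127. An r of 0.5 or more was found for 10 of the 28, where 11.9% of all other genes reached it, and an r of -0.5 or less for 0 of 28, where 8.47% did. In the fit with 1 value per gene, Vnn1 was the single target gene of 28 that passed for both Ppara siRNAs against both control siRNAs (-0.64 ± 0.08 on the log2 scale, adjusted p = 0.00191 in limma), where 0.216% of all genes passed.

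Close relatives of the members differed by family. Of 53 listed relatives and partners 44 were on the array, with a median r of 0.0535. An r of at least 0.5 was found for 5 of the 44, close to the 11.9% of all other genes, and an r of -0.5 or less for 1, Gata2 (-0.652), beside 8.47%. The 7 fucosyltransferases on the array all had a positive r, from 0.0157 to 0.662 with a median of 0.419, and their mean ratio had r = 0.757 over all mice and 0.542 within groups. Pofut2 (0.662), Fut4 (0.655) and Fut9 (0.638) were the highest of them. The 4 phospholipid phosphatases ranged from -0.453 to 0.68 with a median of 0.157, with Plpp6 (0.68) and Plpp5 (0.618) at the upper end. The 8 relatives of Nxn ranged from -0.357 to 0.449, the 7 of Gata6 from -0.652 to 0.114, the 6 of Jmjd8 from -0.353 to 0.385, the 5 of Unc119b from -0.385 to 0.297, the 3 of Stk16 from -0.312 to 0.383 and the 3 partners of Zfp90 from -0.142 to 0.496. The single MINDY deubiquitinase measured beside Mindy1, Mindy3, had -0.304.

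Markers of other cells of the liver moved with Ppara in part. Of 9 cholangiocyte markers, genes of the bile duct lining, 6 were on the array, with a median r of -0.559. Krt19 (-0.818), Krt7 (-0.729) and Epcam (-0.644) were at -0.5 or less, as were 8.47% of all other genes. The mean ratio of the 6 markers had r = -0.771 over all mice and -0.548 within groups. The mean ratio of these 6 lay between 0.057 and 0.128 in the PPARa-M mice, between -0.0238 and 0.12 in the PPARa mice, between -0.0305 and 0.0443 in the SEAP-M mice, between -0.0664 and -0.00262 in the GL3 mice and between -0.0316 and 0.0444 in the vehicle mice. Of the hepatocyte markers 10 of 12 were on the array, with a median r of -0.282. Endothelial markers (11 of 13, -0.0675), macrophage markers (8 of 11, -0.234), stellate cell markers (11 of 11, 0.0101), erythroid markers (5 of 8, 0.343), neutrophil markers (7 of 9, -0.0877) and markers of T and B cells (7 of 9, 0.0565) had medians nearer to 0 than the cholangiocyte markers, with single genes farther out. The 11 stellate markers ranged from -0.41 to 0.754, and 3 were at 0.5 or more, Hhip (0.754), Des (0.693) and Lrat (0.548). So were the erythroid Alas2 (0.716), the hepatocyte Cyp2e1 (0.671) and the lymphocyte Ms4a1 (0.648) and Cd3e (0.548), beside 11.9% of all other genes. At -0.5 or less were the endothelial Flt1 (-0.658), the macrophage C1qa (-0.646) and the hepatocyte Cps1 (-0.501), beside 8.47% of all other genes. The part of these cells in the ratios of the 9 genes was not tested.

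Further lists were read in the same way. Cholesterol synthesis genes, 17 of 22 on the array, had a median r of 0.499, with Mvk (0.751), Cyp51 (0.725) and Fdps (0.635) the highest and 8 at 0.5 or more, beside 11.9% of all other genes. Their mean ratio had r = 0.57 over all mice and 0.339 within groups. Interferon-stimulated genes, 25 of 30, had a median of -0.393 and 5 at -0.5 or less, beside 8.47% of all other genes, among them Eif2ak2 (-0.683), Oasl2 (-0.643) and Irf7 (-0.558). Their mean ratio had r = -0.432 over all mice but 0.0956 within groups, and it reached 0.433 in 1 PPARa-M mouse. Cell cycle genes, 33 of 34, had a median of 0.151, and the r of their mean ratio went from 0.181 over all mice to -0.574 within groups. Their part in the ratios of the 9 genes was not tested either.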

How the data were processed

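Liver RNA of 20 mice, 4 in each of 5 groups, was hybridised against a pool of 4 vehicle mice on 2-colour custom oligonucleotide arrays. The authors deposited 1 log10 ratio for each probe and array, and the background correction and normalization behind it are not given in the sources used here. The arrays give no counts, so their number limits the precision. The design text speaks of 8 vehicle profiles, and 4 are analysed here. No source says that replicate letters mark separate cages or days, so p-values measure the spread between these mice.

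The deposited log10 ratios were used as they are, and log2 values are these divided by log10(2). Pearson and Spearman correlations were computed in Python 3.11.15. Group differences came from limma 3.58.1 in R 4.3.3 (lmFit, contrasts.fit and eBayes over all 20 arrays, Benjamini-Hochberg over 23493 probes, adjusted p below 0.05), tested on simulated data. Symbols are those of the array annotation, where 18790 probes have 1 symbol, 65 several and 4638 none, and for all 12 member probes the Entrez identifier gives the same symbol in RefSeq.

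The members and all gene lists were chosen with earlier results of these data known. Named are the 9 members, Ppara, Cpt1a and Acadl, up to 10 genes with the highest and 5 with the lowest r of a probe with Ppara, the most similar gene of each member, and up to 3 genes of a list with the largest absolute r. Alternatives were scaling, weights, robust moderation, thresholds, 1 value per gene, a replicate block, and each mouse left out.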

Additional observations from a re-analysis of the deposited data

Results flagged for a closer look

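Within groups of 4 mice, 6 values stood far from those of the other 3 mice by Dixon's test, among 65 groups of values for Ppara and the member probes. Chance alone gives such a value in about 1 in 20 groups, and the values of 1 mouse are not independent of each other. PPARa-M replicate B gave 3 of the 6, with the log10 ratio of Ppara at -0.317, of Fut2 at -0.166 and of Zfp90 at 0.226. SEAP-M replicate A gave 2, with Nxn at -0.139 and Jmjd8 at 0.113. The remaining one was Fut2 in GL3 replicate B, at -0.0132, the one GL3 mouse below the pool for this gene.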

How the results depend on the processing

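The replicate letters were not taken as pairing the mice, since the deviations of same-lettered mice from their group means correlated above 0.1 in 13 of 40 pairs only (-0.2 to 0.312). Letter A stood apart, with 6 of 6 pairs above 0.1 among the groups other than PPARa-M. A mouse correlated best with its own letter in 27 of 80 comparisons with another group, and 0 of 20 mice did so in each of them. With the letter as a replicate block the counts of probes past the threshold were 1 for control siRNAs against vehicle, 0 for GL3 against SEAP-M, 54 for both Ppara siRNAs against both control siRNAs, 707 for PPARa-M against SEAP-M, 35 for PPARa against GL3 and 346 for groups at equal Ppara level, and no count of all probes moved by over 1.5 times.

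The relation to Ppara was summed up as the median r of the 9 genes, signs kept and probes averaged. Differences below its jackknife standard error were not counted as a change. It was 0.868 over all mice, 0.719 within groups, 0.65 without and 0.778 with a Ppara siRNA. Over all mice it was 0.654 by ranks, 0.764 after quantile normalization, 0.72 after scaling to 1 interquartile range and 0.719 with the 2 mice of most distant Ppara left out. With such a pair left out it was 0.324 within groups, 0.474 in mice with a Ppara siRNA and -0.00499, the r of Unc119b, in mice without one. In mice with a Ppara siRNA it was 0.595 after quantile normalization, 0.525 after scaling and 0.541 given the interquartile range. Leaving out 1 mouse gave 0.809 to 0.881 over all mice, 0.52 to 0.772 within groups, 0.647 to 0.833 with and 0.0918 (without SEAP-M replicate A) to 0.703 without a Ppara siRNA. Taking the probe of largest absolute r was added after seeing the data. It moved none of the 4 beyond the standard error, though 0.65 became 0.809 (error 0.532) without a Ppara siRNA.

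In the order of the block counts above, the counts without the block were 1, 0, 60, 632, 34 and 464, and leaving out 1 mouse gave 0 to 2, 0 to 6, 33 to 95, 221 to 815, 12 to 42 and 108 to 488. For PPARa-M against SEAP-M the count was 296 without PPARa-M replicate C, 390 without D, 221 without SEAP-M replicate A and 269 without C. For both Ppara siRNAs it was 95 and 35 without PPARa-M replicates A and C, 39 without PPARa replicate C, 36 and 33 without SEAP-M replicates A and C, and 39, 38 and 35 without GL3 replicates A, C and D. For PPARa against GL3 it was 22, 17 and 17 without PPARa replicates A, C and D, and 19, 19 and 12 without GL3 replicates A, B and C. For groups at equal Ppara level it was 283 without PPARa-M replicate C, 108 and 114 without PPARa replicates C and D, and 276 without SEAP-M replicate A. For control siRNAs against vehicle it was 2 without vehicle replicate B or SEAP-M replicate D and 0 without vehicle replicate D, and for GL3 against SEAP-M 6 without PPARa replicate B and 1 without SEAP-M replicate A or GL3 replicate D. Other mice left out moved no count by over 1.5 times.

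From the second count on, quantile normalization gave 55, 15, 14, 20 and 146, scaling to 1 interquartile range 91, 20, 27, 19 and 182, and array weights 231, 226, 1057, 73 and 710, with 4 for the first. From the third on, 1 value per gene gave 33, 388, 8 and 197, fewer features being tested, and an adjusted p below 0.01 gave 23, 119, 13 and 68. With only the compared groups in the fit it was 37, 60 and 7 for the 3 contrasts with a Ppara siRNA. Higher and lower calls for PPARa-M against SEAP-M were 292 and 340, and 3 and 11 after quantile normalization. For both Ppara siRNAs they were 32 and 28, then 10 and 5, and for PPARa against GL3 19 and 15, or 15 and 4 after scaling. Apart from the number of features, the cause of these moves was not tested. Under these settings 0 of 12 member probes passed for control siRNAs against vehicle, GL3 against SEAP-M and groups at equal Ppara level. The values used here carry no signal over background, so dim probes were not told from bright ones.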
